A study of Homo sapiens with 4 samples.

Results

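The 35 genes described here are the core machinery of autophagy, its best known cargo receptors and TFEB. They were taken by gene symbol from the 22494 features of the count table, and all 35 were found. The list was chosen with earlier results of these data known. Its shares beside those of all features are therefore descriptions and not tests. RNA came from HEC-1-A and RL-95-2, which are established human endometrial cancer cell lines. Each line was transfected with tRF-20-S998LO9D mimic, which copies a short RNA derived from tRNA, or with its negative control. That gave 4 libraries, with 1 library per line and transfection, so differences within a line had no replicate check. No label states a dose, a time after transfection or separate cultures. Totals ran from 33575882 to 46220053 counts per library.

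Autophagy wraps cytoplasmic cargo in a double membrane, the autophagosome, and delivers it to the lysosome. A kinase complex built on ULK1 starts the process, and a lipid kinase complex built on PIK3C3 marks the membrane. A ubiquitin-like conjugation system then fixes proteins of the ATG8 family (LC3 and GABARAP) to the membrane, and receptors such as SQSTM1 (p62) bind both ATG8 proteins and tagged cargo. In tumour cells the pathway recycles nutrients and damaged organelles, and several of its genes are known targets of the stress-responsive transcription factors ATF4 and NRF2 and of TFEB.

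All 5 epithelial markers (EPCAM, CDH1, KRT8, KRT18 and KRT19) had at least 1 CPM (counts scaled to library size with TMM factors) in all 4 libraries, and PAX8, a Müllerian lineage factor, had 220 to 353 CPM. PGR and SOX17, which are markers of hormone-responsive and glandular endometrium, had 0 counts in every library. The mesenchymal marker VIM had 0 and 8 counts in RL-95-2. Summed levels of 3 blood markers were 0.85 to 7.56 CPM, nearly all CD68. Summed levels of 3 endothelial markers were at most 0.20 CPM in HEC-1-A but 14.2 CPM in the RL-95-2 control and 24.7 CPM in its mimic library, nearly all CDH5. Stromal markers summed to 81.2 CPM in the RL-95-2 control and 59.0 CPM in its mimic library, mostly COL1A1. The epithelial sum was 1871 CPM with control and 3370 CPM with mimic in RL-95-2, mostly through the keratins. KRT8 had 388 and 1444 CPM there, while EPCAM had 162 and 139 CPM and CDH1 204 and 208 CPM. The part of these shifts in the results was not tested.

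Of the 35 genes, 34 averaged at least 1 CPM in each line. The exception was MAP1LC3A, an LC3 gene, with 2 counts in the HEC-1-A control and 0 in the other 3 libraries. A ratio was left out where both libraries of a line had at most 3 counts. The 34 measured genes had between 189 and 89936 counts per library. They lie on 17 chromosomes. In the RL-95-2 mimic library, 28 of the 34 genes (82.4%) stood below their control level, against 49.9% of all features measured in that line, and 6 stood above it, against 50.1%. Their median log2 ratio, mimic over control, was -0.38, and the median over all 13152 features was 0.00. In HEC-1-A, 26 of 34 (76.5%) stood above the control level, against 53.6% of features, and 8 below it, against 46.4%, with a median of 0.09 against 0.02 over 12981 features. With scaling by library total, 11 of 34 stood below it there, beside 6539 of 12956 features. The shift was thus small in HEC-1-A, and larger and of the other sign in RL-95-2. In these bulk samples, fewer cells with a transcript and less of it per cell cannot be told apart.

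**Figure D1:**
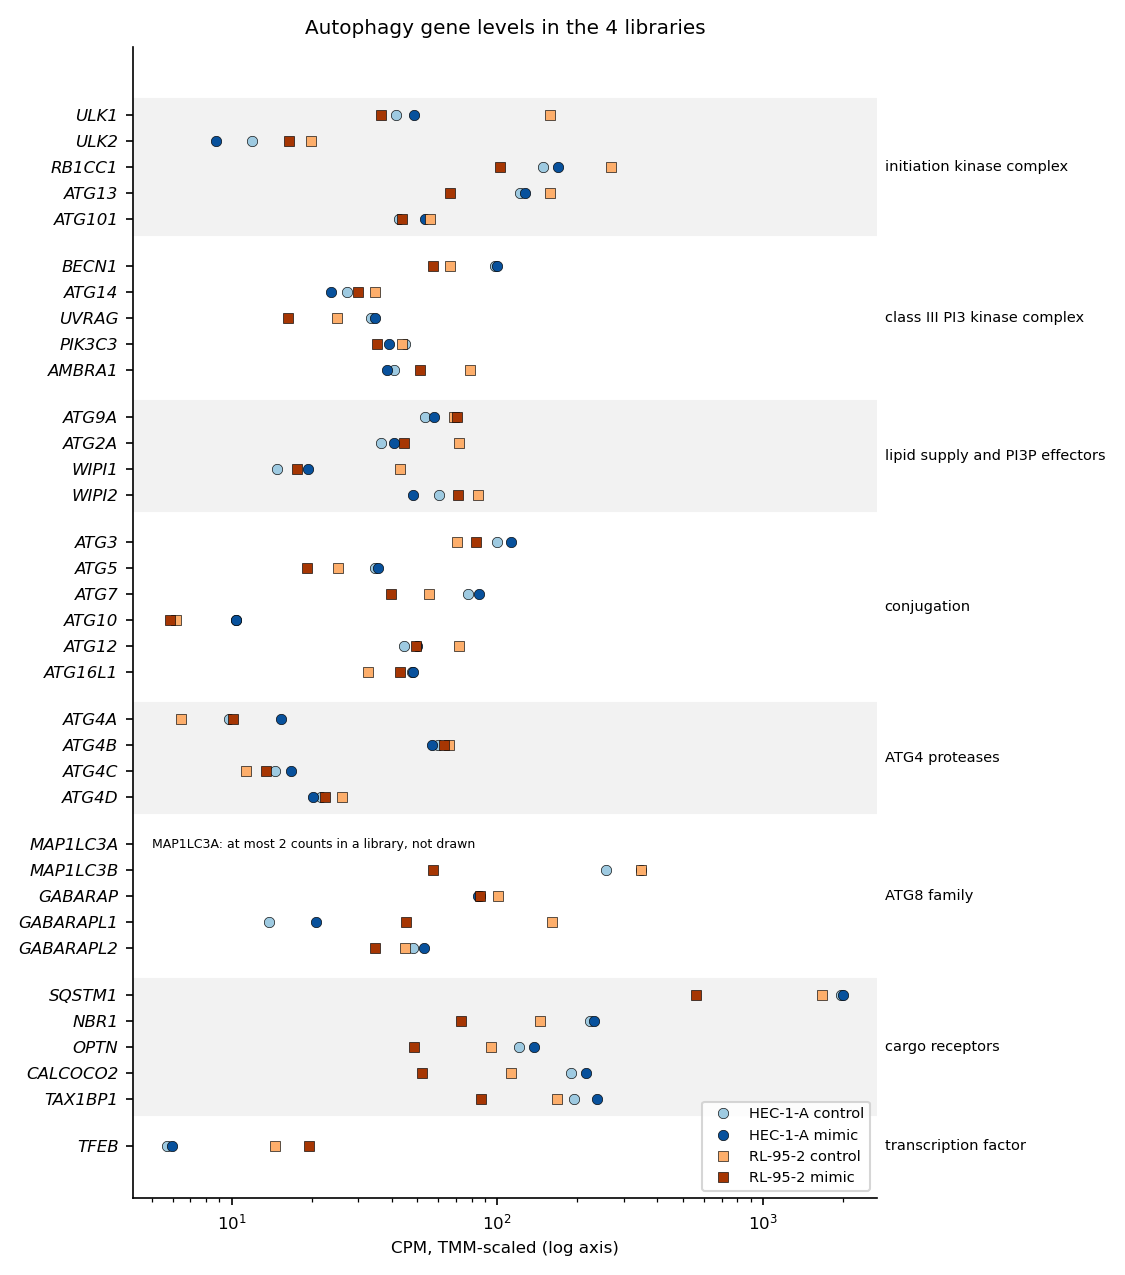
Levels of the 35 autophagy genes in each library, in TMM-scaled CPM on a log axis, grouped by role. Each symbol is 1 library. For MAP1LC3B, SQSTM1 and the other receptors the RL-95-2 mimic library lies apart on the low side, and for ULK1 and WIPI1 the RL-95-2 control lies apart on the high side.

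In RL-95-2, 8 of 34 genes (23.5%) were at least 2-fold lower with the mimic, against 6.52% of all features. They were ULK1, RB1CC1, ATG13, WIPI1, MAP1LC3B, GABARAPL1, SQSTM1 and CALCOCO2. None of the 34 was at least 2-fold higher, a class that held 4.71% of features. Scaling by library total, which moved the median of all features in this line to 0.13, gave 7 lower and 0 higher genes, against 5.20% and 6.64% of features, and a median of -0.25 over the 34 genes. CALCOCO2 was the gene lost, at a log2 ratio of -0.99 under that scaling. Just short of 2-fold were NBR1, OPTN and TAX1BP1. At a 1.5-fold threshold, 14 of 34 genes (41.2%) were lower and 1 was higher, while 15.5% of features were lower and 14.5% higher. In HEC-1-A, 0 of 34 genes were at least 2-fold higher or lower, in a line where 0.871% of features were higher and 0.239% lower. At 1.5-fold, 2 were higher and 0 lower there, against 3.44% and 1.32% of features. All 8 genes at least 2-fold lower in RL-95-2 had a ratio above 0 in HEC-1-A. That combination held 8 of 34 genes (23.5%), against 480 of 11914 features (4.03%) measured in both lines. In all, 857 features were at least 2-fold lower in RL-95-2, so the combination was common among lower features as well.

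**Figure D2:**
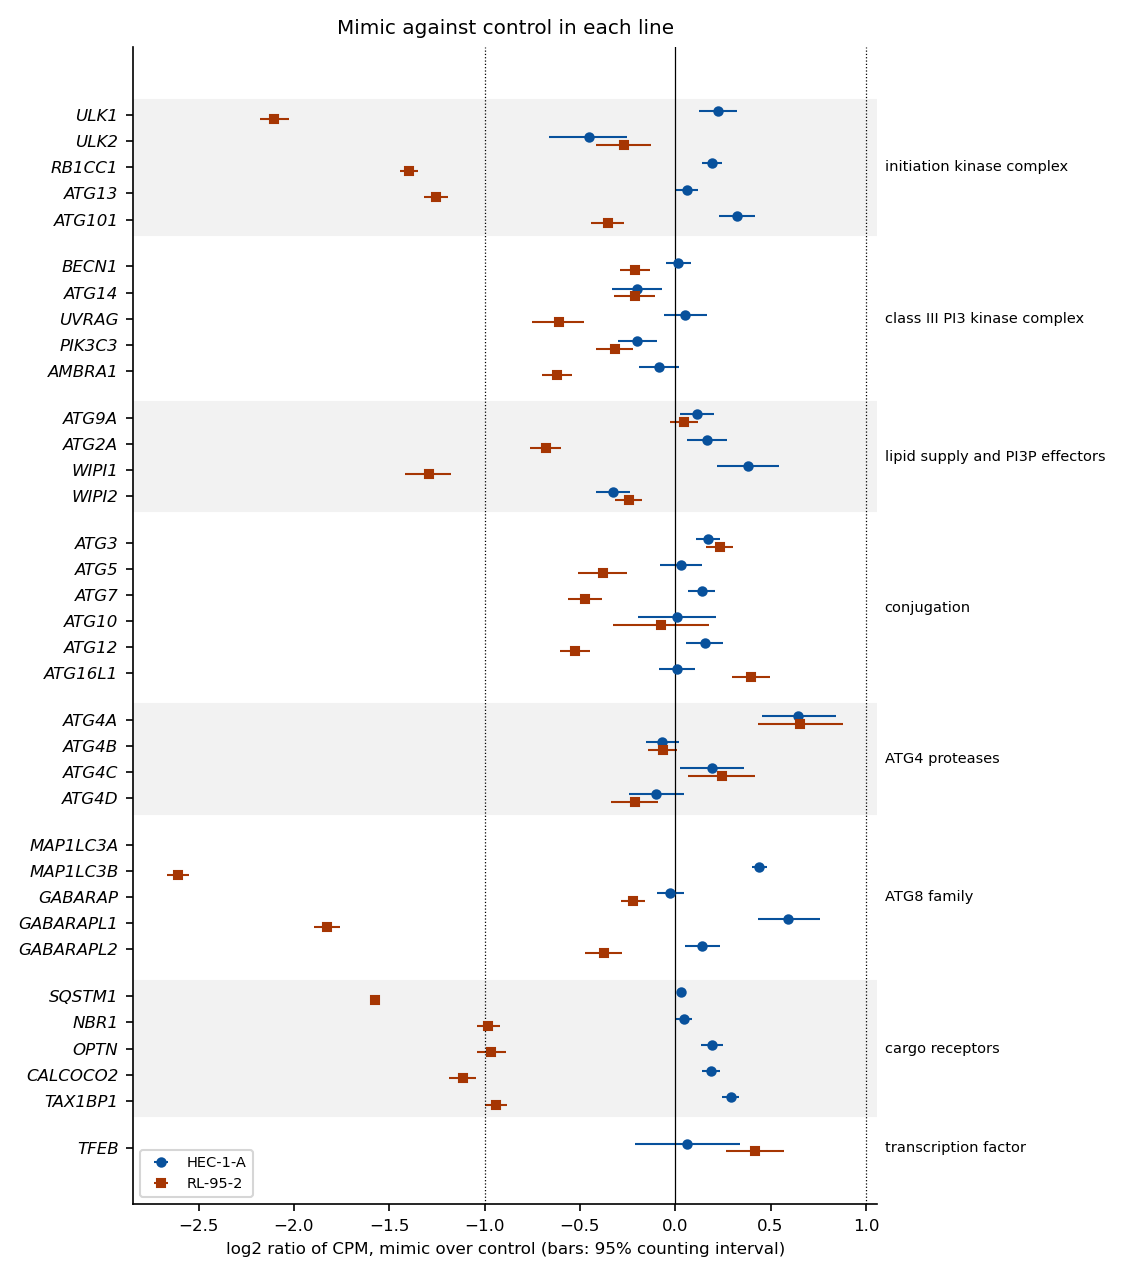
Log2 ratio of CPM, mimic over control, for each gene in HEC-1-A (circles) and RL-95-2 (squares), with 95% counting intervals as bars. Dotted lines mark 2-fold. In RL-95-2 the 5 cargo receptors lie between -1.58 and -0.94, and in HEC-1-A they lie between 0.03 and 0.29.

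Over both lines together, the edgeR test called 0 of the 34 genes and 0 of 15957 features (0.00%) in either direction. At an unadjusted edgeR p under 0.05 it held 0 of the 34 genes and 167 of 15957 features. Such features were rare, so 0 of 34 does not set these genes apart. DESeq2 called 1 feature higher and 1 lower, limma-voom called 0, and neither called any of the 34 genes. The lowest unadjusted p among the 34 was 0.0824, for ATG4A (log2 fold change 0.65, SE 0.32, n = 2 libraries per transfection, edgeR adjusted p = 0.9999). The adjusted p of every one of the 34 genes was 0.9999. The residual spread in this test includes any difference between the responses of the lines.

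The initiation kinase complex was the group with the most genes at least 2-fold lower in RL-95-2, at 3 of 5, against 6.52% of features. ULK1, the kinase that starts autophagosome formation, stood at 41.5 CPM with control and 48.6 CPM with mimic in HEC-1-A, and 157 CPM with control and 36.6 CPM with mimic in RL-95-2. The RL-95-2 control was the library apart, and the other 3 were within 36.6 to 48.6 CPM. ULK1 was thus 4.30-fold lower with the mimic in RL-95-2 (log2 ratio -2.10, 95% counting interval -2.18 to -2.03), and its log2 ratio was 0.22 in HEC-1-A (0.13 to 0.32). ULK1 lies on chromosome 12 at 131894651 to 131923167 (GRCh38). Its paralog ULK2 was low in all libraries, at 12.0, 8.72, 19.9 and 16.5 CPM in the same order, with log2 ratios of -0.45 and -0.27 in the respective lines. The levels of ULK2 therefore stood below control in both lines.

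RB1CC1 (FIP200), the scaffold of the ULK1 complex, had 148 CPM with control and 169 CPM with mimic in HEC-1-A, and 269 CPM with control and 102 CPM with mimic in RL-95-2. Here the RL-95-2 libraries lay on either side of HEC-1-A. The ratio in RL-95-2 was 2.63-fold lower (log2 ratio -1.40, interval -1.44 to -1.35). ATG13, which bridges ULK1 and RB1CC1, had 122, 127, 158 and 66.3 CPM in that order of libraries, with the RL-95-2 mimic alone on the low side. It was 2.38-fold lower in RL-95-2 (log2 ratio -1.25, interval -1.32 to -1.19) and had a log2 ratio of 0.06 in HEC-1-A. ATG101, the stabiliser of ATG13, had log2 ratios of 0.32 and -0.35. Over both lines the edgeR log2 fold changes were -0.94 for ULK1 (SE 0.55), -0.60 for RB1CC1 (SE 0.41) and -0.60 for ATG13 (SE 0.35), n = 2 libraries per transfection, each with an adjusted p of 0.9999.

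The lipid kinase complex stood below control in RL-95-2 in all 5 genes, where 49.9% of features did. At least 2-fold lower were 0 of 5, against 6.52% of features. The log2 ratios in RL-95-2 ran from -0.62 to -0.21. AMBRA1, a regulator of BECN1, had 40.7 CPM with control and 38.4 CPM with mimic in HEC-1-A, and 78.8 CPM with control and 51.3 CPM with mimic in RL-95-2, a log2 ratio of -0.62 in RL-95-2. UVRAG, a subunit of the complex that acts in autophagosome and endosome maturation, had 33.5, 34.7, 24.9 and 16.3 CPM in that order (-0.61 in RL-95-2). BECN1 (beclin 1), the catalytic subunit PIK3C3 and ATG14, which directs the complex to autophagy, had log2 ratios of -0.21, -0.32 and -0.21 in RL-95-2. For the same 3 genes the HEC-1-A values were 0.02, -0.20 and -0.20. ATG14 and PIK3C3 were therefore below control in both lines. With scaling by library total, the RL-95-2 ratios of BECN1 and ATG14 were nearer 0, at -0.083 and -0.085.

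Among the proteins that supply lipid or read its mark, WIPI1 was the single gene of 4 at least 2-fold lower in RL-95-2, against 6.52% of features. WIPI1, which binds PI3P on the growing membrane, had 14.8 CPM with control and 19.3 CPM with mimic in HEC-1-A, and 43.1 CPM with control and 17.6 CPM with mimic in RL-95-2. As for ULK1, the RL-95-2 control stood apart on the high side, and here the RL-95-2 mimic library lay between the HEC-1-A libraries. The log2 ratio was -1.29 in RL-95-2 (interval -1.41 to -1.18) and 0.38 in HEC-1-A (0.22 to 0.54). Of its exon bases, 24.3% overlap exons of ARSG on the other strand. ARSG had 13.6 CPM with control and 8.83 CPM with mimic in RL-95-2, and without a stated strand setting the reads cannot be told apart. WIPI2, the related protein that recruits ATG16L1, had a log2 ratio of -0.33 in HEC-1-A, against -0.24 in RL-95-2. The lipid transfer protein gene ATG2A had 0.17 and -0.68, and the lipid scramblase gene ATG9A 0.11 and 0.05. Part of ATG9A (38.8% of exon bases) is shared with a gene model on the same strand, AC068946.2.

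Of the conjugation genes, 0 of 6 reached 2-fold in either line. In RL-95-2, 6.52% of features were at least 2-fold lower and 4.71% higher. There 4 of the 6 genes stood below control and 2 above, against 49.9% and 50.1% of features. ATG12, a ubiquitin-like protein joined to ATG5, had 44.6 CPM with control and 49.7 CPM with mimic in HEC-1-A, and 71.5 CPM with control and 49.7 CPM with mimic in RL-95-2. Its log2 ratio in RL-95-2 was -0.53, with -0.47 for ATG7, the activating enzyme, and -0.38 for ATG5. ATG3 and ATG16L1 stood above control in RL-95-2. ATG3, the enzyme that transfers ATG8 proteins to lipid, had 0.23 there (interval 0.16 to 0.30) and 0.17 in HEC-1-A. ATG16L1, the subunit that places the conjugation complex on the membrane, had 0.40 in RL-95-2 (0.30 to 0.50) and 0.01 in HEC-1-A. ATG10, the transferase for ATG12, was low at 5.86 to 10.4 CPM, and its intervals included 0 in both lines (-0.20 to 0.21 in HEC-1-A, -0.33 to 0.18 in RL-95-2). RPS23 on the other strand shares 6.9% of the ATG10 exon bases and had 255 to 368 CPM. VGLL4 on the other strand shares 18.1% of the ATG7 exon bases and had a log2 ratio of -0.625 in RL-95-2. Without a stated strand setting, reads of these shared bases cannot be told apart.

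ATG4 proteases cut newly made ATG8 proteins and later release them from lipid, and 0 of their 4 genes reached 2-fold in either line. In RL-95-2, 6.52% of features were at least 2-fold lower and 4.71% higher. ATG4A had 9.75 CPM with control and 15.3 CPM with mimic in HEC-1-A, and 6.43 CPM with control and 10.1 CPM with mimic in RL-95-2. The mimic library was thus the higher one in each line, by nearly the same ratio, with log2 ratios of 0.65 in HEC-1-A (interval 0.46 to 0.84) and 0.65 in RL-95-2 (0.44 to 0.88). ATG4C had 0.19 and 0.24, ATG4B -0.07 and -0.07, and ATG4D -0.10 and -0.21. The order of the 4 genes by FPKM, the authors' values per length, was led by ATG4B with 50.6% to 57.8% of the summed level in every library. The sum itself was 38.5, 39.8, 42.0 and 45.7 FPKM.

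Within the ATG8 family, the mimic went with at least 2-fold lower MAP1LC3B and GABARAPL1 in RL-95-2, and GABARAP and GABARAPL2 did not reach 2-fold. MAP1LC3B encodes LC3B, the usual marker protein of autophagosomes. Its level was 257 CPM with control and 349 CPM with mimic in HEC-1-A, and 349 CPM with control and 57.3 CPM with mimic in RL-95-2. The RL-95-2 mimic library lay far below the other 3. The ratio was 6.09-fold lower in RL-95-2 (log2 ratio -2.61, interval -2.67 to -2.55), the lowest of the 34 genes, and the log2 ratio was 0.44 in HEC-1-A (0.40 to 0.48). The edgeR log2 fold change over both lines was -1.08 (SE 0.73, n = 2 libraries per transfection, adjusted p = 0.9999). MAP1LC3B lies on chromosome 16 at 87383995 to 87404779 (GRCh38).

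MAP1LC3B has a close copy, MAP1LC3B2, whose transcript was identical at 97.8% of 597 aligned bases, so reads of the shared stretch are uncertain between them. MAP1LC3B2 had 5.62, 7.82, 9.64 and 1.75 CPM in the same order of libraries, with a log2 ratio of 0.47 in HEC-1-A, against -2.43 in RL-95-2. FBXO31 on the other strand shares 2.8% of the MAP1LC3B exon bases and had -0.56 in RL-95-2.

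GABARAPL1, a GABARAP-like member of the family, had 13.8 CPM with control and 20.8 CPM with mimic in HEC-1-A, and 161 CPM with control and 45.4 CPM with mimic in RL-95-2. Both RL-95-2 libraries exceeded both HEC-1-A libraries. With the mimic the gene was 3.54-fold lower in RL-95-2 (log2 ratio -1.82, interval -1.90 to -1.76) and 1.51-fold higher in HEC-1-A (0.59, interval 0.43 to 0.76). GABARAP, the founding member, stayed within 85.0 to 100.5 CPM, with log2 ratios of -0.03 and -0.22. GABARAPL2 lay within 34.6 to 52.9 CPM, with 0.14 and -0.37. Another gene model on the same strand, AC120057.2, shares 30.5% of the GABARAP exon bases. GABARAPL1 has a close copy, GABARAPL3, whose transcript was identical at 94.7% of 263 aligned bases. Reads of that shared stretch are uncertain between them.

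Per length, the makeup of the family differed in the RL-95-2 mimic library. Summed FPKM of the 5 genes was 184 with control and 215 with mimic in HEC-1-A, then 282 with control and 127 with mimic in RL-95-2. MAP1LC3B made up 46.2%, 52.4%, 39.9% and 16.1% of these sums, and was the highest of the family except in the RL-95-2 mimic library. There GABARAP led with 40.6%, followed by GABARAPL2 with 25.9%. GABARAPL1 gave 3.5% and 4.3% in HEC-1-A but 26.7% and 17.4% in RL-95-2.

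**Figure D3:**
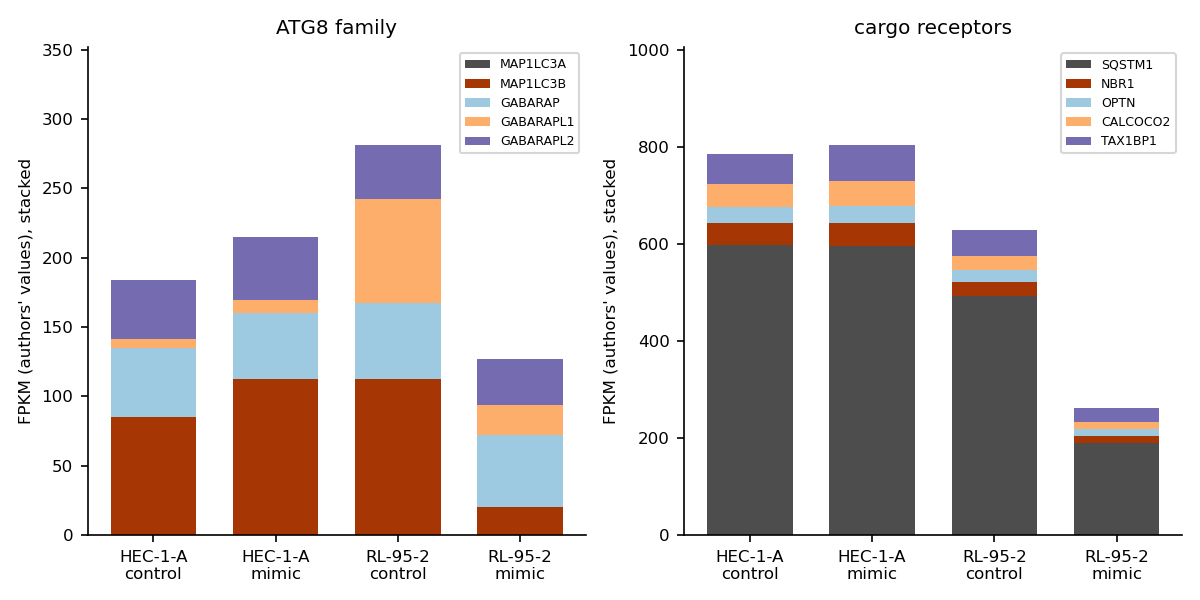
Stacked FPKM (the authors' values) of the ATG8 family genes (left) and of the cargo receptor genes (right) in each library. MAP1LC3B makes up 39.9% of the ATG8 sum in the RL-95-2 control and 16.1% in its mimic library, and SQSTM1 makes up 71.9% to 78.5% of the receptor sum in all 4.

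Promoter sequence was examined for the 35 genes, since 8 of them stood at least 2-fold lower together in RL-95-2. RefSeq windows from 250 bases before to 50 bases after a start were matched by symbol for 31 of the 35 genes (41 windows). Each window was searched on both strands for an E-box (CACGTG), its extended form (TCACGTGA), a C/EBP-ATF composite site (TGATGCAA), a CRE (TGACGTCA), an antioxidant response element core (TGACNNNGC) and a FOXO site (GTAAACA). The extended form contains the E-box. Of the 8 genes, 7 had a window, and a match was found for MAP1LC3B, CALCOCO2 and GABARAPL1 only. Sites more than 250 bases before a start were outside the search. The antioxidant core was in 3 of the 41 windows (7.32%), a smaller share than the 13.35% of all 35116 windows. Those 3 belong to MAP1LC3B, CALCOCO2 and ATG101, of which ATG101 is not among the 8. GABARAPL1 held the CRE, found in 1.85% of windows, and CALCOCO2 the FOXO letters (3.42%). The composite site was in 0 of the 41 windows and in 0.87% of all windows. The E-box was in the windows of ATG3 and ATG14 (7.26% of all windows), and the extended form in that of ATG3 (0.98%). A match describes letters only. The stretches just upstream of the RefSeq start (150 bases, plus strand, GRCh38.p14) are shown for the ATG8 genes and the receptor with a match, with the matched letters in capitals. They lie at chr16:87392186-87392335, chr12:10212727-10212876 and chr17:48830885-48831034.
MAP1LC3B: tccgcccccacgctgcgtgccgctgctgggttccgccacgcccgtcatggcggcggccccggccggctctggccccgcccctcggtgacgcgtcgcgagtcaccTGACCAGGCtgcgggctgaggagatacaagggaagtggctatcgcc
GABARAPL1: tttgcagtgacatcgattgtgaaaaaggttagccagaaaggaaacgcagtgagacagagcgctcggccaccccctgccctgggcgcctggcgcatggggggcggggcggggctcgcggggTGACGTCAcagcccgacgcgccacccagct
CALCOCO2: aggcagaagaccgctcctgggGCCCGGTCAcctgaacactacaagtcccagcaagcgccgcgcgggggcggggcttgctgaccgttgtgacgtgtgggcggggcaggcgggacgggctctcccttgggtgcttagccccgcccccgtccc

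The antioxidant core starts 46 bases before the MAP1LC3B start, and in CALCOCO2 it lies on the other strand from position -129. The CRE of GABARAPL1 starts at position -30. These stretches are 74.0%, 66.7% and 72.0% G and C, in the order printed. The median over whole windows was 64.7% for the 41 windows of the autophagy genes and 58.7% for all windows.

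Cargo receptors stood below control in RL-95-2 in all 5 genes, where 49.9% of features did. They stood above control in HEC-1-A in all 5, where 53.6% of features did. SQSTM1 (p62), which links ubiquitin-tagged cargo to LC3, was the most abundant of the 35 genes by FPKM in every library. It had 1968 CPM with control and 2010 CPM with mimic in HEC-1-A, and 1669 CPM with control and 560 CPM with mimic in RL-95-2. The first 3 were close together and the last was 2.98-fold under its control (log2 ratio -1.58, interval -1.60 to -1.56). The HEC-1-A log2 ratio was 0.03 (0.02 to 0.04), and -0.01 on log2(FPKM + 1). Over both lines the edgeR log2 fold change was -0.77 (SE 0.43, n = 2 libraries per transfection, adjusted p = 0.9999). Exons of MRNIP on the other strand cover 20.7% of the SQSTM1 exon bases, and MRNIP had a log2 ratio of 0.09 in RL-95-2. SQSTM1 lies on chromosome 5 at 179806398 to 179838078 (GRCh38).

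CALCOCO2 (NDP52), a receptor for bacteria and mitochondria, had 190 CPM with control and 216 CPM with mimic in HEC-1-A, and 113 CPM with control and 52.1 CPM with mimic in RL-95-2. The lines did not overlap, and the RL-95-2 mimic library was the lowest. It was 2.16-fold lower in RL-95-2 (log2 ratio -1.11, interval -1.18 to -1.04), and had 0.19 in HEC-1-A. NBR1, a receptor related to SQSTM1, had 224, 231, 145 and 73.3 CPM in that order, a log2 ratio of -0.98 in RL-95-2. With RLE size factors NBR1 passed 2-fold. OPTN (optineurin), a receptor in mitophagy, had 121, 138, 94.9 and 48.6 CPM (-0.96 in RL-95-2). TAX1BP1, a receptor for protein aggregates, had 194, 238, 167 and 87.2 CPM (-0.94 in RL-95-2). In HEC-1-A these 3 had 0.04, 0.19 and 0.29. The RL-95-2 mimic library was thus the lowest of the 4 for each of the 5 receptors. Summed FPKM of the 5 was 785, 805, 628 and 263 in the same order, of which SQSTM1 gave 71.9% to 78.5%.

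TFEB, a transcription factor of lysosomal and autophagy genes, was among the least abundant of the 35 by FPKM in HEC-1-A. Its level was 5.71 CPM with control and 5.97 CPM with mimic in HEC-1-A, and 14.6 CPM with control and 19.5 CPM with mimic in RL-95-2. In RL-95-2 the mimic library was the higher, with a log2 ratio of 0.42 (interval 0.27 to 0.57), while most of the other genes stood below control there. The HEC-1-A ratio of 0.06 had an interval that included 0 (-0.21 to 0.34). Of its relatives, TFE3 had a log2 ratio of 0.19 in HEC-1-A, against -0.77 in RL-95-2, and MITF had 0.49 against -0.39.

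Between the lines, counting intervals lay above 0 in HEC-1-A and below 0 in RL-95-2 for 16 of 34 genes (47.1%), against 15.0% of 11914 features. Such intervals narrow with more counts. The 34 genes had 189 to 89936 counts per library, while features entered from a mean of 1 CPM, so these shares are not matched for level. Across the 34 genes, Pearson's r between the 2 log2 ratios was -0.331 and Spearman's rho was -0.377. Across all 11914 features they were -0.127 and -0.148. The points share the 4 libraries, and the correlation is across genes, which are not independent replicates. ATG4A, ATG3 and ATG4C were above 0 in both lines with intervals that left out 0, and ULK2, ATG14, PIK3C3 and WIPI2 were below 0 in both in the same sense. With 1 library per line and transfection, the difference between the lines' responses could not be tested.

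**Figure D4:**
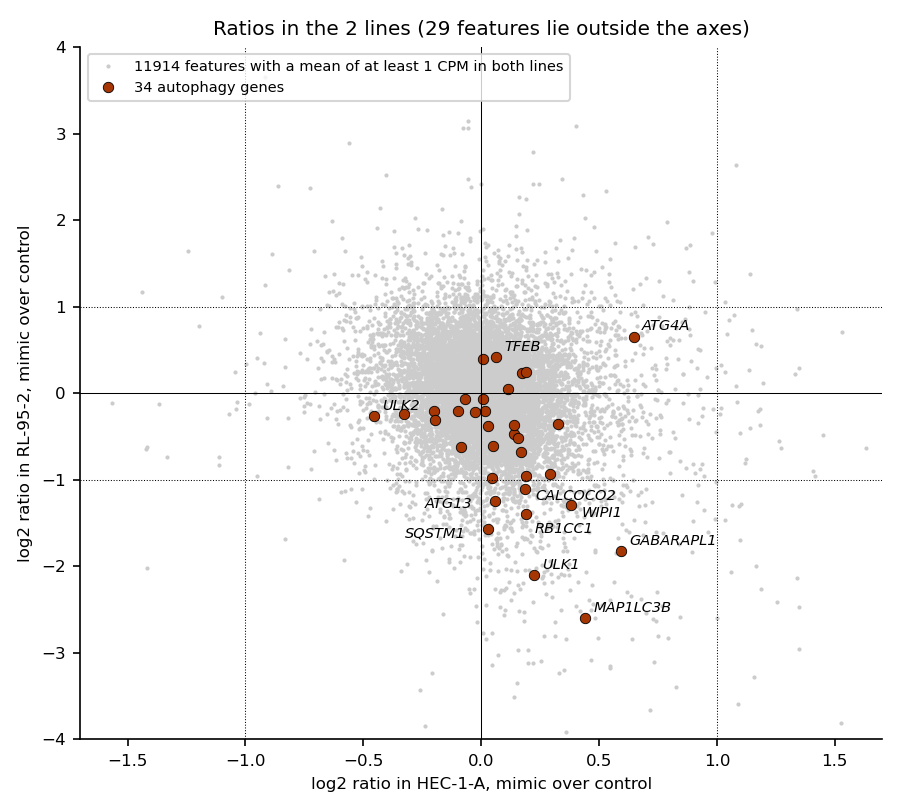
Log2 ratio, mimic over control, in HEC-1-A (x axis) against RL-95-2 (y axis). Grey points are 11914 features that average at least 1 CPM in each line, of which 29 lie outside the axes, and dark red points are 34 autophagy genes. Dotted lines mark 2-fold; 8 genes lie below the lower one and to the right of 0.

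Levels between the lines were compared with the line term of the same edgeR fit, with 2 libraries per line that differ in transfection. It called 2 of the 34 genes higher and 2 lower in RL-95-2, against 18.3% and 16.7% of 15957 features. Together these are 11.8% of the 34 genes, a smaller share than among all features. GABARAPL1 was higher in RL-95-2 (log2 fold change 2.33, SE 0.58, edgeR adjusted p = 0.0232, n = 2 libraries per line). The difference was 3.54 between the control libraries and 1.12 between the mimic libraries. TFEB was higher as well (1.53, SE 0.32, edgeR adjusted p = 0.0128). CALCOCO2 was lower in RL-95-2 (-1.40, SE 0.36, edgeR adjusted p = 0.0249), at -0.75 between the controls and -2.05 between the mimic libraries. NBR1 was lower too (-1.14, SE 0.32, edgeR adjusted p = 0.0331), at -0.63 and -1.66. Its call was lost with no block for the transfection (edgeR adjusted p = 0.056). SQSTM1 had -1.04 (SE 0.44, edgeR adjusted p = 0.112) and MAP1LC3B -1.08 (SE 0.73, edgeR adjusted p = 0.293). For both, the RL-95-2 control was near the HEC-1-A mean (log2 difference -0.25 and 0.20), and the RL-95-2 mimic library was far under it (-1.83 and -2.40).

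The RL-95-2 libraries were also read against the HEC-1-A mean for the other genes at least 2-fold lower with the mimic in RL-95-2. For ULK1, WIPI1 and GABARAPL1 the RL-95-2 control was the library far from HEC-1-A, at log2 differences of 1.81, 1.34 and 3.22, and the mimic library was nearer, at -0.30, 0.04 and 1.39. RB1CC1 lay on both sides, at 0.76 with control and -0.63 with mimic, as did ATG13 at 0.35 and -0.91. CALCOCO2 was below HEC-1-A in both libraries, at -0.85 and -1.96.

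BECN1 and ATG7 came near the threshold between the lines. BECN1 had 98.3 CPM with control and 99.4 CPM with mimic in HEC-1-A, and 66.2 CPM with control and 57.2 CPM with mimic in RL-95-2 (log2 fold change -0.68, edgeR adjusted p = 0.0578). ATG7 had 77.3, 85.1, 55.2 and 39.8 CPM in that order (-0.79, edgeR adjusted p = 0.0531). In both genes the RL-95-2 libraries were below the HEC-1-A libraries without overlap. DESeq2 called both genes lower in RL-95-2.

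**Figure D5:**
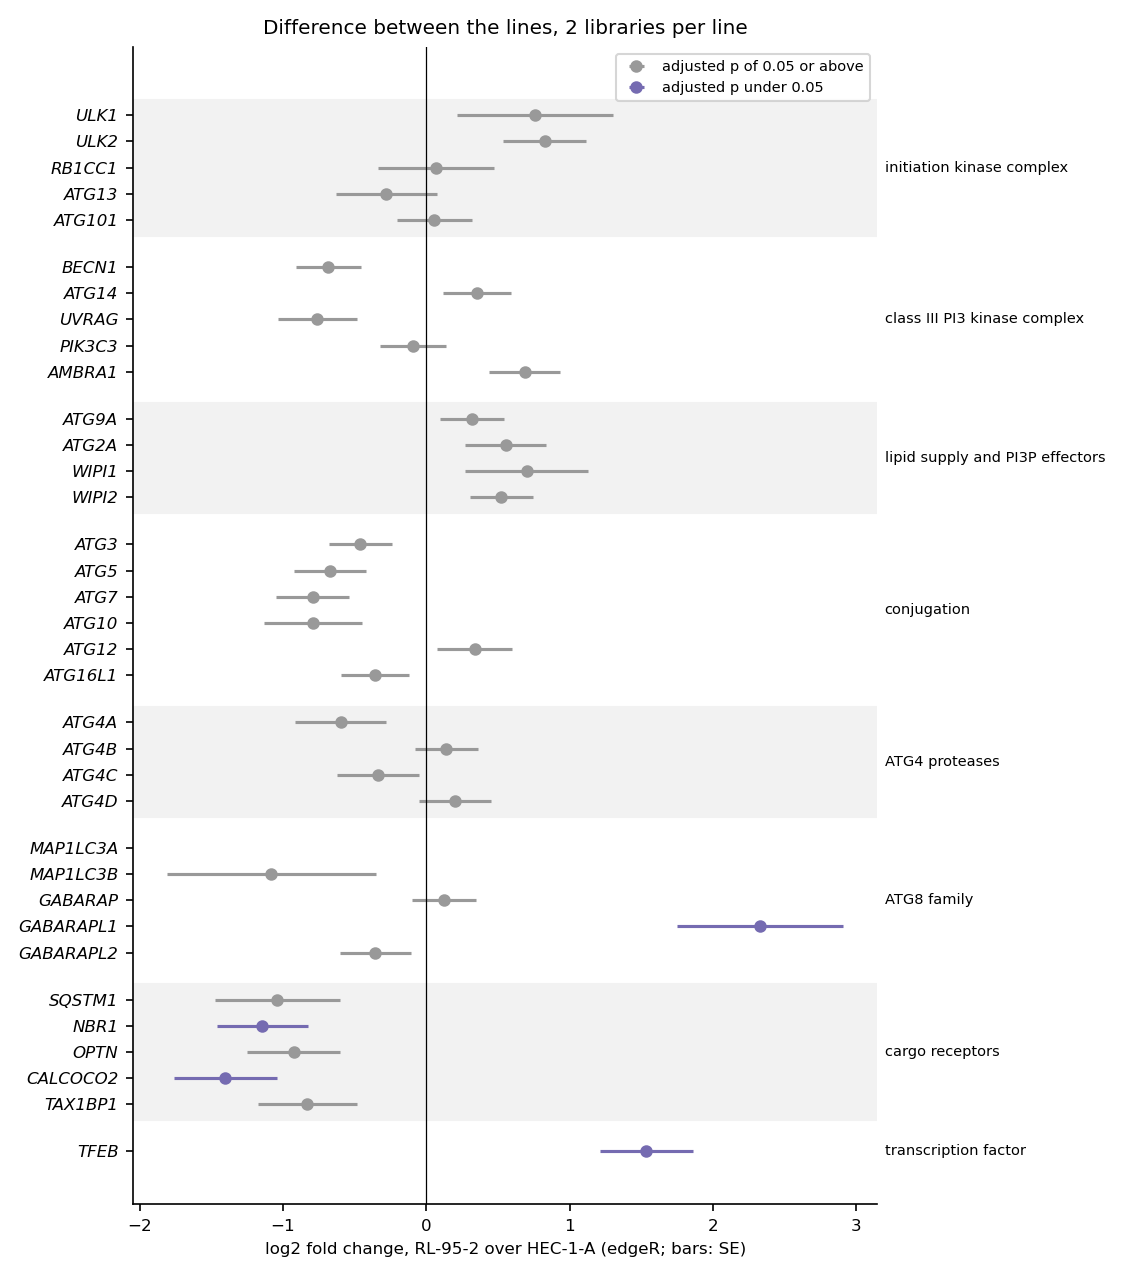
EdgeR log2 fold change of RL-95-2 over HEC-1-A for 34 genes, with the SE derived from the F statistic as bars (2 libraries per line). MAP1LC3A was not tested. Purple points have an adjusted p under 0.05: GABARAPL1 and TFEB are higher and CALCOCO2 and NBR1 lower in RL-95-2.

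A further 55 autophagy genes outside the 35 were read from the same table. In RL-95-2, 4 of 52 measured genes (7.7%) were at least 2-fold lower and 0 higher, with a median log2 ratio of -0.10, and the share lower was close to the 6.52% of all features. In HEC-1-A, 1 of 53 (1.9%, against 0.871% of features) was at least 2-fold higher and 0 lower, with a median of 0.05. The gene apart in HEC-1-A was ATG9B, a paralog of ATG9A, with 24 control and 75 mimic counts there and 0 counts in RL-95-2. Besides MAP1LC3B2, those lower in RL-95-2 were WDR45, BNIP3L and RETREG1. WDR45, a PI3P-binding relative of WIPI1, had 51.1 CPM with control and 52.8 CPM with mimic in HEC-1-A, and 71.2 CPM with control and 21.2 CPM with mimic in RL-95-2 (log2 ratio -1.75 in RL-95-2). BNIP3L (NIX), a mitophagy receptor, had 89.2, 96.2, 267 and 72.8 CPM in that order (-1.88). RETREG1, a receptor for endoplasmic reticulum listed under its older symbol FAM134B, had 8.88, 11.1, 18.5 and 6.31 CPM (-1.54).

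Organelle receptors in RL-95-2 had 2 of 19 genes at least 2-fold lower (10.5%, against 6.52% of features) and a median of -0.25, where the 5 cargo receptors had a median of -0.98. Of the genes for fusion with lysosomes, 10 of 15 (66.7%) had a ratio above 0, against 50.1% of features, with a median of 0.13 and 0 at least 2-fold apart. Among them, VPS16, a subunit of the tethering complexes, had 25.2 CPM with control and 50.2 CPM with mimic in RL-95-2 (0.99), and VPS18 of the same complexes had 0.75. FYCO1, a motor adaptor, was the lowest at -0.51. EI24, a membrane protein of the endoplasmic reticulum, had the highest ratio of the further core machinery at 0.86, and PIK3R4, the regulatory subunit of the lipid kinase complex, had 0.43.

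Of the 5 stress-related genes read beside them (ATF4, DDIT3, NFE2L2, SESN2 and DDIT4), all 5 stood below control in RL-95-2, where 49.9% of features did, and 4 of them by at least 2-fold, against 6.52% of features. These 5 were chosen with earlier results of these data known, so their counts beside the shares of features are a description and not a test. DDIT3 (CHOP), a stress-induced transcription factor, had 136 CPM with control and 15.8 CPM with mimic in RL-95-2 (log2 ratio -3.10), against 56.4 and 67.3 CPM in HEC-1-A. NFE2L2, which encodes NRF2, had -1.11 in RL-95-2 and 0.18 in HEC-1-A, and ATF4 -0.79 and -0.04. In the same order of lines, SESN2 had -2.52 and 0.16, and DDIT4 -3.23 and -0.21. Their part in the autophagy gene levels was not tested. Median GC content of the transcripts was 48.5% in the 8 genes at least 2-fold lower, 46.6% in the other 26 and 48.6% over 10911 features. Median length was 3334, 3463 and 3481 bases.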

How the data were processed

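RNA held on oligo(dT) beads was sequenced in 4 libraries, per the labels' protocols. The authors deposited raw counts per gene symbol and FPKM values per gene symbol for the same 4 libraries, per the file headers. The submitters' processing notes list CASAVA, HISAT2 and the GRCh38 (hg38) build. For the read counter, gene annotation and strandedness: not given in the sources used here. Library totals were 33575882 to 46220053 counts.

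Of 22494 features, 15957 passed edgeR's expression filter by transfection. Counts were scaled by TMM (edgeR 4.0.16, R 4.3.3) and tested by its quasi-likelihood F test with terms for cell line and transfection, with Benjamini-Hochberg adjustment over all 15957 features at an FDR of 0.05. The libraries of a line form a pair because they come from the same named line. This left 1 residual and 5.44 prior degrees of freedom. The SE beside an edgeR log2 fold change was derived from the test, as its absolute value over the square root of the F statistic. The 4 libraries are different combinations of line and transfection, and the labels name no replicate culture of any. A p-value for either term therefore rests on the residual among these 4 samples. That residual includes any difference between the lines' responses to the mimic and is not a spread between replicate cultures. Each line had a single library per transfection, so its log2 ratio has no p-value. That ratio used a prior count of 2, with an exact 95% interval from both counts, which covers counting error only.

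The functions were tested on simulated data. Alternatives were DESeq2 1.42.0, limma-voom (limma 3.58.1), RLE factors, scaling by library total, other filters, thresholds and prior counts, log2(FPKM + 1), log2(FPKM + 0.1), no block and each library pair left out. Removal of GC and length trends was added after the data were seen. Gene positions and exon overlaps came from GENCODE 29 (GRCh38) and promoter sequences from RefSeq (GRCh38.p14). The 35 genes, the list of 55 further autophagy genes and the motifs were chosen with earlier results of these data known. All 35 genes were named. Of the 55, those at least 2-fold apart in a line and the 2 highest and 2 lowest of each list in each line were eligible for naming, and several are given only as counts.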

Additional observations from a re-analysis of the deposited data

Results flagged for a closer look

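For 11 genes the counting interval of the mimic-over-control ratio lay above 0 in HEC-1-A and below 0 in RL-95-2, and the 2 log2 ratios were at least 1 apart. The RL-95-2 log2 ratio minus that of HEC-1-A was -3.05 for MAP1LC3B, -2.42 for GABARAPL1, -2.33 for ULK1, -1.67 for WIPI1, -1.61 for SQSTM1 and -1.59 for RB1CC1. It was -1.31 for ATG13, -1.30 for CALCOCO2, -1.23 for TAX1BP1, -1.16 for OPTN and -1.02 for NBR1. These include all 5 cargo receptors and 3 of the 5 initiation genes. The lower ends of the HEC-1-A intervals of ATG13 and NBR1 were 0.00, and the HEC-1-A ratio of SQSTM1 turned to -0.01 on log2(FPKM + 1). With 1 library per line and transfection, the difference between the lines was not tested.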

How the results depend on the processing

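The count of 8 genes at least 2-fold lower in RL-95-2 was 7 to 9 under every other scaling, unit, filter and prior count tried, and 14 at 1.5-fold. At 1.5-fold, 2 genes (HEC-1-A) and 1 gene (RL-95-2) were higher, in place of 0. With no minimum CPM, 1 gene counted as lower in HEC-1-A, MAP1LC3A with 2 counts. The median log2 ratio in RL-95-2, -0.38, was -0.25 with scaling by library total, -0.21 on log2(FPKM + 1) and -0.23 on log2(FPKM + 0.1). The median of all features moved with it, from 0.00 to 0.13, 0.11 and 0.14. Over both lines DESeq2 called 1 feature higher and 1 lower, and limma on log2(FPKM + 0.1) called 2 higher and 1 lower, none of them among the 34 genes. Of features within RL-95-2, 619 were at least 2-fold higher and 857 lower, against 875 and 685 with scaling by library total, and 352 and 375 on log2(FPKM + 1). Of features within HEC-1-A, 113 and 31 became 18 and 11 at a minimum of 5 CPM. Between the lines, 4 genes were lower in RL-95-2 with DESeq2 and 5 on log2(FPKM + 0.1), in place of 2, with BECN1 and ATG7 in both and OPTN in the latter. With no replicate block, 0 features passed over both lines, as with the block, and NBR1 was lost between the lines (log2 fold change -1.06). Without RL-95-2 the log2 ratios of the 8 genes turned above 0: 0.22 for ULK1, 0.19 for RB1CC1, 0.06 for ATG13, 0.38 for WIPI1, 0.44 for MAP1LC3B, 0.59 for GABARAPL1, 0.03 for SQSTM1 and 0.19 for CALCOCO2. Without HEC-1-A they were -2.10, -1.40, -1.25, -1.29, -2.61, -1.82, -1.58 and -1.11. Leaving out a line only returns the ratio of the other line given above, so these values are no further check. Signs also turned for BECN1, ATG5, ATG10, ATG16L1 and SQSTM1 in HEC-1-A, while ATG10 and ATG4B turned in RL-95-2, under 1 or more scalings or units, from ratios near 0 and with that shift of all features in RL-95-2. The genes below control in HEC-1-A thus went from 8 to 11 with scaling by library total and to 12 on log2(FPKM + 1). Counting intervals were widest for TFEB in HEC-1-A. The spread between cultures was not measured.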
